A study of Mus musculus with 16 samples.

Results

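The cytosolic ribosome was followed through its protein genes in mouse quadriceps, a thigh muscle of mixed but mainly fast fibres. Members were chosen by name alone, as every gene whose symbol began with Rpl or Rps and a digit, together with Rplp0, Rplp1, Rplp2 and Rpsa, without the ribosomal S6 kinases and without named pseudogenes. This gave 88 of the 24354 genes in each table, of which 43 encode proteins of the large subunit, 31 proteins of the small subunit and 3 the acidic stalk. A further 10 are paralogs or retrogenes, and 1, Rps19bp1, encodes a binding partner of a small subunit protein and is no subunit itself.

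Muscle came from male mice of the C57BL/6 strain aged 4 months, fed normal chow. The mice were wild type or labelled HDAC3-KO, a knockout of the histone deacetylase HDAC3, and the promoter or Cre line behind the knockout is not given in the sources used here. Each genotype was sampled at rest and after treadmill running, in 3 bouts of 1 h each, at a speed of 10 m/min and with 1 h between bouts, and running muscle was taken 2 h after the last. Each of these 4 groups held 3 RNA-seq libraries, given as FPKM, mapped fragments scaled by transcript length and library size.

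Ribosomes translate messenger RNA, and each ribosomal protein is needed in about the same amount as its partners because the subunits have a fixed composition. The messenger RNAs of these proteins are among the most abundant in a cell, and most begin with a run of pyrimidines at the start of the transcript, through which the kinase mTOR controls their translation. In skeletal muscle the ribosome content changes with growth, loading and disuse, and a muscle paralog, Rpl3l, can take the place of Rpl3.

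The libraries summed to between 454360 and 522580 FPKM, and their read depth was unknown. The spread between 3 libraries was therefore the only measure of error, and p-values measure the spread between these samples, which may be technical, since nothing says that they came from separate animals. The targeted gene stood at 23.7 to 33.3 FPKM in all 6 libraries of wild type, against 4.13 to 8.16 FPKM in all 6 of the knockout. Fibre markers fitted the labelled tissue, since 10 genes such as Ckm and Acta1 summed to between 77910 and 107100 FPKM per library. Markers of immune cells stood apart in 2 libraries, with a sum over 12 genes of 554.5 FPKM in resting wild-type library 2, against 68.6 to 111.0 FPKM in the other 5 at rest, and of 445.9 FPKM in running knockout library 3, against 55.1 to 114.9 FPKM in the other 5. After running the sums of both lists did not overlap between genotypes. Among all single genes tested after running, 26.1% did not overlap either. Immune markers summed to 90.2 to 445.9 FPKM in knockout and 55.1 to 78.9 FPKM in wild type, without overlap, with 8 of 8 tested genes above 0, and the macrophage gene Cd68 rose from 0.888 ± 0.545 to 4.26 ± 1.45 FPKM (limma: difference 1.48 on the log2 scale, adjusted p = 0.0372, missed in 4 of 6 fits with 1 library left out). Fibre markers summed to 78820 to 90050 FPKM in knockout, all below the 90270 to 107100 FPKM of wild type, with a median log2 difference of -0.28 and 0 of 10 passing limma. Their part in the members' values was not tested. At rest both sums overlapped between genotypes. There 1 of 8 tested immune genes was above 0, with a median log2 difference of -0.24. Of the fibre markers 6 of 10 were above 0, with a median of 0.03. Satellite cell markers at rest summed to 1.72 to 2.58 FPKM in knockout and 3.67 to 5.83 FPKM in wild type, without overlap. These are low values, and they overlapped after running. Whether they bear on the members' values was not tested. In bulk tissue, fewer cells of a type and less RNA per cell cannot be told apart. Rest and running stood in separate tables whose scaling to each other is not stated, so genotypes were compared within a table.

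In resting wild-type muscle 73 of the 88 members had a mean of 100 FPKM or more, 9 lay between 10 and 100 FPKM and 6 were under 10 FPKM. The median was 232 FPKM and the middle of the members ran from 137 FPKM at the lower quartile to 360.0 FPKM at the upper one. Together they held 4.69, 4.90 and 5.40% of the FPKM in the 3 resting wild-type libraries. The median was 212 FPKM over the large subunit, 285 FPKM over the small subunit and 303 FPKM over the stalk.

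Levels were far from even, although the ribosome holds its proteins in fixed amounts. The highest member was Rps27rt, a retrocopy of the small subunit gene Rps27, at 1336 ± 148 FPKM (SD, n = 3), followed by Rpl38, a small protein of the large subunit also known for its part in translating Hox messenger RNAs, at 1177 ± 52.5 FPKM. Also among the highest were the large subunit protein Rpl23a at 559 ± 49.3 FPKM and Rps2, a small subunit protein near the messenger RNA entry, at 526 ± 38.3 FPKM. At the other end, subunit genes that every cell uses were listed at low values. Rpl30 was at 7.01 ± 3.39 FPKM, Rpl34 at 14.1 ± 9.04 FPKM and Rpl26 at 15.6 ± 13.5 FPKM, each a protein of the large subunit. Rpl26 was listed at 0 in resting wild-type library 3, in resting knockout library 1 and in 3 running libraries, which for a gene of the ribosome core can be a failed estimate. Ribosomal protein genes have many near-identical processed copies in the mouse genome, and the sources used here do not say how reads were shared among them, so levels and differences of such genes are uncertain.

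Rps27 and Rps27rt show how close such copies can be. The start of each transcript is printed from the RefSeq table of build GRCm38.p6, which differs from the build of the files, with 10 bases before the annotated start, 20 bases from it, and in capitals the run of pyrimidines that begins with C.
Rps27, chr3:90213629-90213658, minus strand: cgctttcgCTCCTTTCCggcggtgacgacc
Rps27rt, chr9:114982720-114982749, minus strand: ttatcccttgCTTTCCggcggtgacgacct
From its second transcribed base Rps27 was identical to Rps27rt over 38 bases. In the best alignments without gaps, 39 of 49 genomic bases from the start on matched (79.6%), whereas the 50 bases before the start had 38.3% identity. Spliced messenger RNAs were not compared, so 79.6% is not the identity of the transcripts. Rps27 was listed at 16.6, 15.2 and 13.5 FPKM and Rps27rt at 1440, 1401 and 1167 FPKM in the resting wild-type libraries. Resting knockout library 1 stood apart, with Rps27 at 36.7 FPKM against 11.5 and 10.2 FPKM in the others. The ratio of Rps27rt to Rps27 ran from 42.1 to 192 over the 12 libraries. Reads of this pair may be split between the loci, so neither level can be read alone.

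At rest, no member passed the test between genotypes. Of the 84 members tested, 0 passed limma at an adjusted p of 0.05, where limma called 4.72% of all tested genes (3.04% higher and 1.67% lower in knockout), and 7 had an unadjusted p at or under 0.05, all higher in knockout, beside 21.5% of all tested genes. Among members only Rps2, by the authors' deposited table, had a q at or under 0.05, beside 10.8% of the genes tested. The median log2 difference of knockout minus wild type was 0.11 over the 84 members, with 62 above 0, and 0.01 over the 9204 genes tested, with 4755 above 0. The 95% interval of the difference lay within a 2-fold change either way for 76 members and within a 1.5-fold change for 55. The 4 members that were not tested were Rpl10l, listed at 0 in all 12 libraries, and Rpl37rt, Rpl39l and Rps4l, all copies of other members and all under 3 FPKM in every library.

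**Figure D1:**
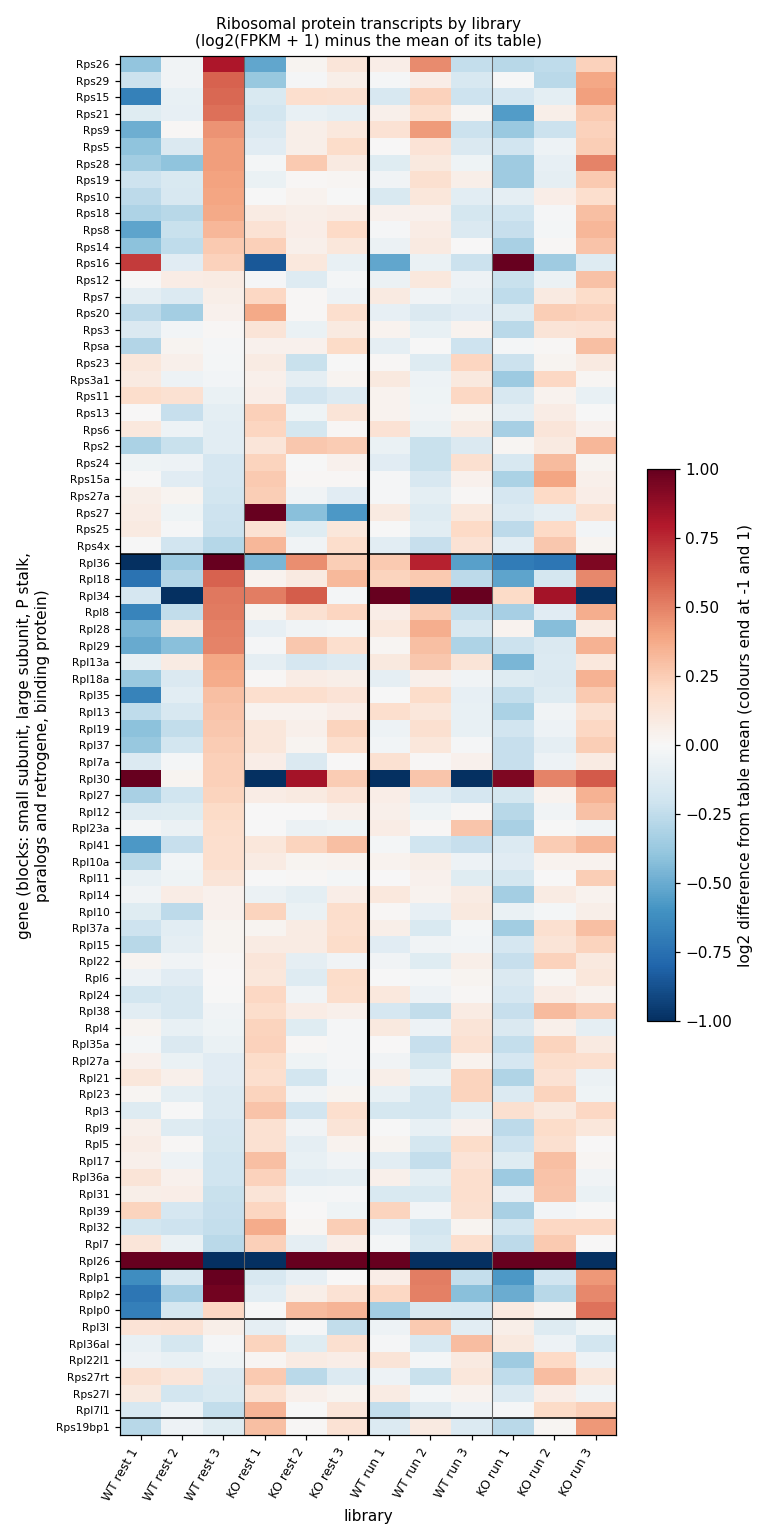
Heat map of 83 of the 84 tested members (rows, in blocks by role) in 12 libraries (columns), coloured by log2(FPKM + 1) minus the mean of the same gene over the 6 libraries of its table, with colours ending at -1 and 1. Of the 77 members at 30 FPKM or more, 32 are highest at rest in wild-type library 3, and 51 are lowest after running in knockout library 1.

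Among small subunit genes, Rps2 came nearest to the threshold at rest. It was at 489.6, 522.5 and 566.0 FPKM in wild type and at 665.0, 735.6 and 726.7 FPKM in knockout, so the genotypes did not overlap. The log2 difference was 0.43 (SE 0.10, 95% interval 0.19 to 0.67, limma adjusted p = 0.0623), and in the authors' deposited table its q was 0.0429. Rps20, which sits at the head of the small subunit, was at 479.1, 452.1 and 589.8 FPKM in wild type and at 746.3, 578.5 and 645.3 FPKM in knockout. Its groups overlapped, with a log2 difference of 0.37 (SE 0.14, limma adjusted p = 0.191). Rps4x, the X-linked member, had a log2 difference of 0.32 (limma adjusted p = 0.211). Over the 31 small subunit genes the median was 0.11, and 22 were above 0.

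Other small subunit genes with known roles did not pass the test at rest. Rps6, the substrate of the S6 kinases, had a log2 difference of 0.04 (95% interval -0.26 to 0.33). Rps3, which lines the messenger RNA entry channel, had 0.11 (-0.13 to 0.34), Rps27a, which is made as a fusion with ubiquitin, had 0.07 (-0.24 to 0.37), and Rps14, a protein of the small subunit platform, had 0.27 (-0.14 to 0.68). Rpsa, also known as a laminin receptor, was at 137.0, 171.1 and 166.5 FPKM in wild type and at 172.5, 173.2 and 191.3 FPKM in knockout. Its lowest knockout library lay just above its highest wild-type library, and the log2 difference was 0.18 (SE 0.12, limma adjusted p = 0.420). The lowest log2 differences of the subunit were those of Rps16 and Rps26. Rps16 was at 70.1, 39.6 and 50.5 FPKM in wild type and 23.4, 46.2 and 40.6 FPKM in knockout (limma: difference -0.54 on the log2 scale, SE 0.29, adjusted p = 0.324). That difference was -0.33 without wild-type library 1 and -0.26 without knockout library 1. Rps26 had a log2 difference of -0.25 (SE 0.31, limma adjusted p = 0.694).

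Among large subunit genes, Rpl32 had the smallest p at rest. It was at 435.2, 429.9 and 419.8 FPKM in wild type and at 641.6, 501.3 and 586.4 FPKM in knockout, without overlap (limma: difference 0.42 on the log2 scale, SE 0.12, 95% interval 0.15 to 0.69, adjusted p = 0.0901). Rpl41, the smallest ribosomal protein, had 324.1, 411.0 and 543.4 FPKM in wild type and 521.4, 562.7 and 596.3 FPKM in knockout. Wild-type library 3 lay within the knockout range, and the log2 difference was 0.42 (SE 0.18, limma adjusted p = 0.241) and 0.24 without wild-type library 1. Rpl38 had a log2 difference of 0.20 (SE 0.10, limma adjusted p = 0.300), with all knockout libraries above all wild-type ones. Rpl5 and Rpl11, which carry the small ribosomal RNA of the large subunit and can hold the p53 ligase Mdm2, had differences of 0.06 (95% interval -0.20 to 0.32) and -0.01 (-0.23 to 0.22).

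The extremes of the large subunit at rest were genes of low FPKM. Rpl34 had the largest positive value, 0.73 (SE 0.46, limma adjusted p = 0.406), with 13.9, 5.14 and 23.2 FPKM in wild type and 22.9, 24.6 and 15.5 FPKM in knockout. Rpl30 had the largest negative value, -0.92 (SE 0.79, limma adjusted p = 0.556), with 10.9, 4.64 and 5.501 FPKM in wild type and 0, 8.82 and 5.59 FPKM in knockout. That value rests on the library listed at 0, and without knockout library 1 it was 0.09 (limma adjusted p = 0.926). Without wild-type library 1 it was -0.59, and without knockout library 2 -1.56. Rpl26 had -0.31 (SE 1.52, limma adjusted p = 0.933). Rpl13a, which also takes part in translational silencing after interferon, was lower without overlap, at 159.7, 178.4 and 220.2 FPKM in wild type and 157.6, 149.8 and 152.4 FPKM in knockout (limma: difference -0.27 on the log2 scale, SE 0.13, adjusted p = 0.293). Without wild-type library 3 that value was -0.14.

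The stalk proteins recruit elongation factors to the large subunit, with Rplp0 as the base for copies of Rplp1 and Rplp2. Rplp0 was at 212.2, 302.7 and 393.9 FPKM in wild type and at 340.4, 426.8 and 432.9 FPKM in knockout at rest (limma: difference 0.44 on the log2 scale, SE 0.22, adjusted p = 0.310). That value was 0.20 without wild-type library 1 and 0.65 without wild-type library 3. Rplp1 was at 238.5, 328.3 and 747.9 FPKM in wild type and at 327.9, 346.8 and 368.7 FPKM in knockout, and Rplp2 at 128.9, 169.4 and 418.5 FPKM against 198.3, 223.1 and 235.9 FPKM. In both, resting wild-type library 3 was the highest and library 1 the lowest of all 6, so the genotypes overlapped widely. The log2 differences were -0.16 (SE 0.37) and 0.06 (SE 0.39).

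After running, again 0 of the 84 tested members passed limma, where limma called 3.73% of all tested genes (1.58% higher and 2.15% lower in knockout), and 4 had an unadjusted p at or under 0.05, all higher in knockout, beside 19.9% of all tested genes. These 4 were Rpl30, Rpl3, Rplp0 and Rps2. The median log2 difference over the members was -0.0025, with 41 of 84 above 0. Over the 9037 genes tested it was -0.0007, with 4513 above 0. The interval lay within a 2-fold change for 79 members and within a 1.5-fold change for 67. The median was -0.01 over the large subunit, 0.02 over the small subunit and -0.20 over the stalk. These medians rest on single libraries: without knockout library 1 that over all members was 0.10, and without knockout library 3 it was -0.07.

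Rps2 again did not overlap after running, at 586.7, 527.2 and 556.6 FPKM in wild type and 623.9, 654.0 and 775.0 FPKM in knockout (limma: difference 0.29 on the log2 scale, SE 0.12, adjusted p = 0.234). Rplp0 was at 269.9, 307.6 and 306.7 FPKM in wild type and at 364.7, 349.1 and 498.6 FPKM in knockout, without overlap (limma: difference 0.44 on the log2 scale, SE 0.15, 95% interval 0.08 to 0.79, adjusted p = 0.172), and without knockout library 3 the difference was 0.28. Its partners did not share that order. Rplp1 had a log2 difference of -0.23 (SE 0.27) and Rplp2 one of -0.20 (SE 0.30), each with limma adjusted p over 0.5.

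**Figure D2:**
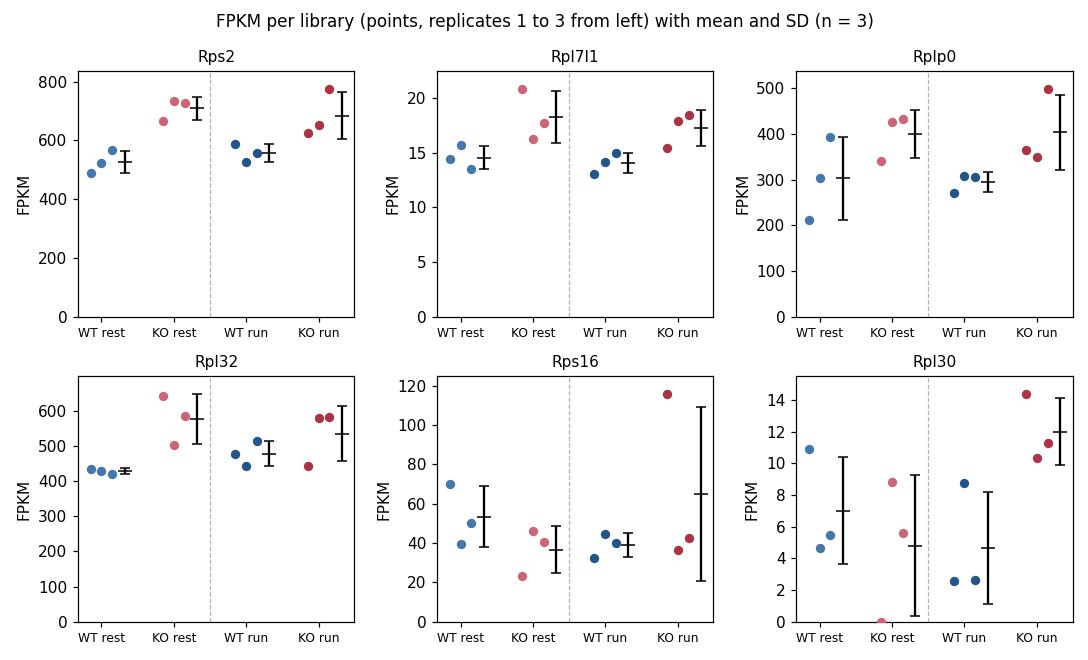
FPKM of Rps2, Rpl7l1, Rplp0, Rpl32, Rps16 and Rpl30 in each library (points, replicates 1 to 3 from left) with the mean and SD of each group (n = 3), wild type (WT) and knockout (KO) at rest and after running. Rps2 and Rpl7l1 have all knockout points above all wild-type points of the same table, while Rps16 after running owes its mean to 1 library at 115.7 FPKM.

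Genes of low or uneven FPKM led the values after running. Rpl30 was at 2.59, 8.77 and 2.61 FPKM in wild type and at 14.4, 10.3 and 11.3 FPKM in knockout, the largest difference of any tested member (limma: difference 1.36 on the log2 scale, SE 0.37, 95% interval 0.51 to 2.21, adjusted p = 0.0927). Without wild-type library 2 the difference was 1.84 and passed (limma adjusted p = 0.0096). At rest the same gene had the opposite sign, and the difference between the 2 knockout effects was 2.28 (SE 0.98, limma adjusted p = 0.923). Rpl26 came next, at 16.5, 0 and 0 FPKM in wild type and at 12.1, 17.5 and 0 FPKM in knockout (limma: difference 1.26 on the log2 scale, SE 1.36, adjusted p = 0.654). Rps16 was at 32.4, 44.8 and 40.2 FPKM in wild type and at 115.7, 36.3 and 42.7 FPKM in knockout. It had a q of 0.00432 in the authors' deposited table, where 9.57% of tested genes were at or under 0.05, and a limma adjusted p of 0.486 (log2 difference 0.53, SE 0.39). Without knockout library 1 the difference was 0.02, and without knockout library 2 it was 0.85.

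The lowest differences after running were those of Rpl13a at -0.33 (SE 0.15, limma adjusted p = 0.286; -0.18 without knockout library 1), Rpl36 at -0.32 (SE 0.48), Rpl34 at -0.25 (SE 1.11), Rpl23a at -0.25 (SE 0.13, limma adjusted p = 0.348) and Rps9 at -0.24 (SE 0.20). Rpl23a, which lies at the exit of the nascent chain, did not overlap, at 618.4, 591.4 and 713.1 FPKM in wild type and 468.1, 583.9 and 572.8 FPKM in knockout. Rps6 had a log2 difference of -0.11 (95% interval -0.44 to 0.22), Rpl5 one of -0.03 (-0.35 to 0.30) and Rpl11 one of 0.05 (-0.26 to 0.35).

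**Figure D3:**
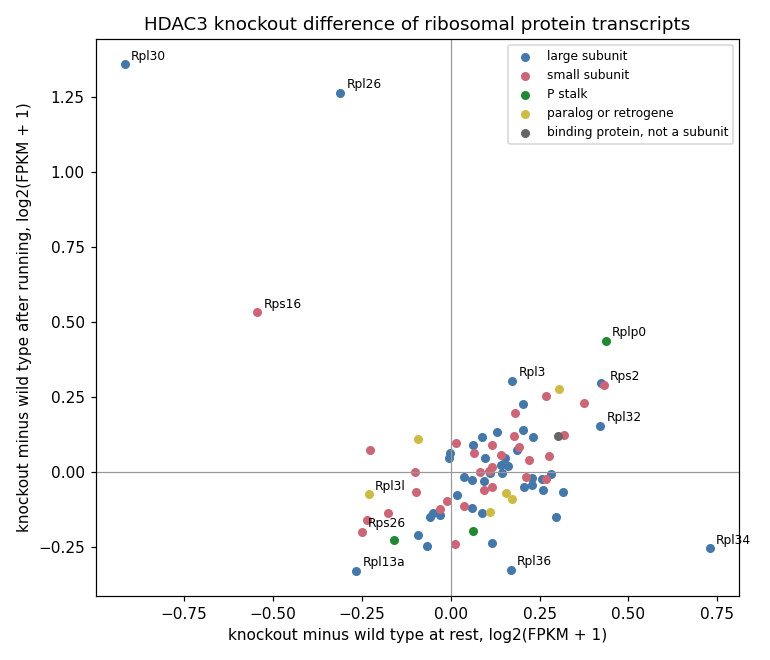
Knockout minus wild type on the log2(FPKM + 1) scale for the 84 tested members, at rest (horizontal axis) and after running (vertical axis), coloured by role. Most members lie within 0.5 of 0 on both axes, and Rpl30, Rpl26, Rps16 and Rpl34, all of low or uneven FPKM, lie farthest out.

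The contrast of the knockout effect after running with that at rest called 0 of the 84 members, where it called 0.0% of the 8854 genes in both tables by limma adjusted p, and 1 member, Rpl30, had an unadjusted p at or under 0.05, beside 4.89% of all genes. Its median was -0.11 over the members, with 21 of 84 above 0. Over all genes the median was -0.04, with 3924 of 8854 above 0. The interval of this contrast lay within a 2-fold change for 72 members and within a 1.5-fold change for 42. For the other members interactions larger than these bounds were not excluded, and smaller ones were not resolved by 3 libraries per group.

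Separation of the genotypes without overlap was counted next, since the test passed no member. At rest 16 of the 84 members had no overlap (19.0%), 13 higher and 3 lower in knockout, beside 28.0% of all tested genes (15.6% higher and 12.4% lower). After running it was 6 of 84 (7.14%), 5 higher and 1 lower, beside 26.1% of all tested genes (12.4% higher and 13.7% lower). Both shares were below those over all genes. At rest the members without overlap included, beside those described above, Rpl15, Rpl22l1, Rpl35a, Rpl37a, Rps15a and Rps24 on the higher side and Rps12 on the lower one. In both tables and in the same direction there were Rps2 and Rpl7l1, which is 2 of 84 (2.38%), beside 12.2% of the 8854 genes tested in both.

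Several paralogs replace or accompany a member in particular tissues, and Rpl3l, restricted to heart and skeletal muscle, is the best known. Rpl3l was at 130.7, 131.7 and 123.9 FPKM in wild type and at 111.9, 117.6 and 100.1 FPKM in knockout at rest, without overlap (limma: difference -0.23 on the log2 scale, SE 0.10, adjusted p = 0.234). Rpl3, which it replaces near the peptidyl transferase centre, was at 37.9, 41.5 and 37.7 FPKM in wild type and at 50.8, 36.3 and 46.6 FPKM in knockout (limma: difference 0.17 on the log2 scale, SE 0.14, adjusted p = 0.517), a value that was 0.08 without knockout library 1 and 0.31 without knockout library 2. After running Rpl3 did not overlap, at 37.0, 36.9 and 39.1 FPKM in wild type and 46.9, 44.9 and 48.5 FPKM in knockout (limma: difference 0.31 on the log2 scale, SE 0.10, adjusted p = 0.150). Rpl3l then overlapped, with a log2 difference of -0.07 (SE 0.13, limma adjusted p = 0.796).

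The ratio of Rpl3l to Rpl3 within a library does not depend on how libraries are scaled. At rest it was 3.44, 3.17 and 3.29 in wild type and 2.20, 3.24 and 2.15 in knockout, a log2 difference of -0.41 (exact permutation test, two-sided p = 0.2), with knockout library 2 inside the wild-type range. After running it was 3.19, 3.98 and 2.90 in wild type and 2.71, 2.49 and 2.45 in knockout, a log2 difference of -0.39. All knockout libraries were then below all wild-type ones, and the exact permutation test gave a two-sided p = 0.1, the smallest that 3 against 3 libraries allow. Neither ratio could therefore pass 0.05.

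**Figure D4:**
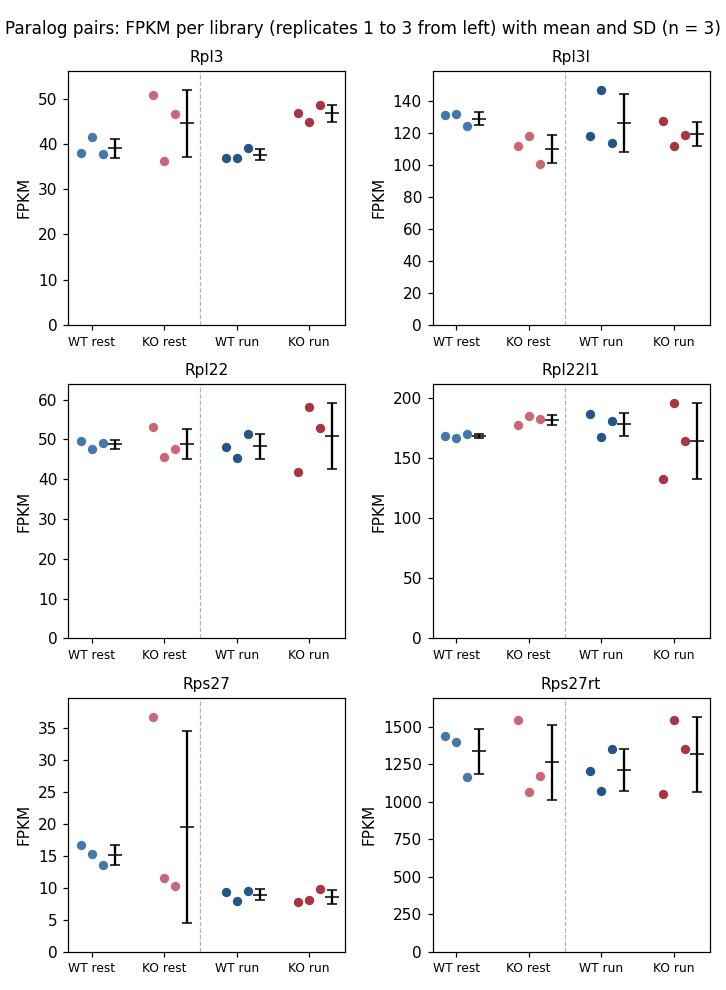
FPKM per library (points, replicates 1 to 3 from left) with mean and SD (n = 3) for Rpl3 and Rpl3l, Rpl22 and Rpl22l1, and Rps27 and Rps27rt, wild type (WT) and knockout (KO) at rest and after running. Rpl3l exceeds Rpl3 and Rpl22l1 exceeds Rpl22 in every library, and Rps27rt exceeds Rps27 by a wide margin.

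Rpl22l1, the close relative of the large subunit protein Rpl22, exceeded it 3.12- to 4.06-fold in FPKM in the 12 libraries. Rpl22 had a log2 difference of -0.0032 at rest and 0.06 after running, and Rpl22l1 one of 0.11 and -0.13, each with limma adjusted p over 0.5. Rpl7l1, a nucleolar relative of Rpl7, was at 14.4, 15.7 and 13.5 FPKM in wild type and 20.8, 16.2 and 17.7 FPKM in knockout at rest (limma: difference 0.30 on the log2 scale, SE 0.12, adjusted p = 0.203). After running it was at 13.0, 14.1 and 14.95 FPKM against 15.4, 17.9 and 18.5 FPKM (limma: difference 0.28 on the log2 scale, SE 0.12, adjusted p = 0.252). The genotypes did not overlap in either table, whereas Rpl7 itself overlapped in both, with differences of 0.14 and -0.0012.

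Rps27l, a p53-responsive relative of Rps27, had log2 differences of 0.16 (SE 0.11) and -0.07 (SE 0.10), and Rpl36al, a relative of Rpl36a, 0.17 (SE 0.12) and -0.09 (SE 0.15). Rpl10, whose relative Rpl10l was listed at 0 throughout, had 0.23 (SE 0.13) and -0.02 (SE 0.11). Rpl39 had 0.11 (SE 0.15) and -0.23 (SE 0.13), and its relative Rpl39l, known from testis, reached at most 0.895 FPKM in any library, and Rps4l, a transcribed pseudogene in RefSeq, at most 2.88 FPKM. Rps19bp1, the binding partner of Rps19, was at 4.90, 5.90 and 5.56 FPKM in wild type and 7.81, 6.20 and 6.89 FPKM in knockout at rest, without overlap (limma: difference 0.30 on the log2 scale, SE 0.12, adjusted p = 0.215). After running its groups overlapped (0.12, SE 0.19, limma adjusted p = 0.765).

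As a group the members also overlapped between genotypes. Their share of all FPKM at rest was 4.69, 4.90 and 5.40% in wild type and 5.60, 4.88 and 5.11% in knockout. After running it was 4.72, 4.73 and 5.16% in wild type and 4.70, 5.61 and 5.61% in knockout. The ranges overlapped in each table.

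Replicates of a group differed among themselves in a way that many members shared. Of the 77 members at 30 FPKM or more, 24 had a coefficient of variation over 25% in resting wild type (31.2%), beside 10.9% of the 1662 genes at that level. In resting knockout it was 2.60% of members beside 6.498% of genes, in running wild type 5.19% beside 9.58%, and in running knockout 10.4% beside 12.2%. Rpl36, a large subunit protein, was the widest, at 49.4, 119.9 and 517.2 FPKM in the resting wild-type libraries.

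At rest 32 of the 77 members were highest in wild-type library 3 and 30 in knockout library 1. Over 1653 genes at that level the shares were 16.5 and 22.4%. The first set held Rpl36, Rplp1, Rplp2, Rpl18, Rpl28, Rpl8, Rps15 and Rps26, and the other held Rpl4, Rpl5, Rpl7, Rpl38, Rps20, Rps24 and Rps25. The sets were read from these libraries, so their resting values are a description and carry no test. After running 22 of the first 32 were highest in knockout library 3 and 7 in wild-type library 2, while of the other 30 members 16 were highest in knockout library 2 and 6 in wild-type library 3. Over all genes highest in resting wild-type library 3, 23.1% were highest in running knockout library 3 and 42.1% in running wild-type library 2. Of those highest in resting knockout library 1, 36.1% were highest in running knockout library 2. Running knockout library 1 was the lowest of its table for 51 of the 77 members, beside 32.4% of those 1653 genes, and resting wild-type library 1 for 32 of the 77, beside 20.5%.

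Marker sums are given here for resting wild-type library 3 and running knockout library 3. Immune markers summed to 108.9 FPKM in resting wild-type library 3, within the range of the other resting libraries, but to 445.9 FPKM in running knockout library 3. Fibroblast markers, 6 genes, summed to 478.9 FPKM in the former and 456.0 FPKM in the latter, with 287.5 to 596.4 FPKM in the other resting libraries and 270.1 to 403.2 FPKM in the other running ones. Red cell markers summed to 148.0 FPKM in the former, with 137.3 to 316.7 FPKM in the other resting libraries. In the latter they summed to 431.7 FPKM, with 145.3 to 261.1 FPKM in the other running ones. Their part in the members' values was not tested.

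**Figure D5:**
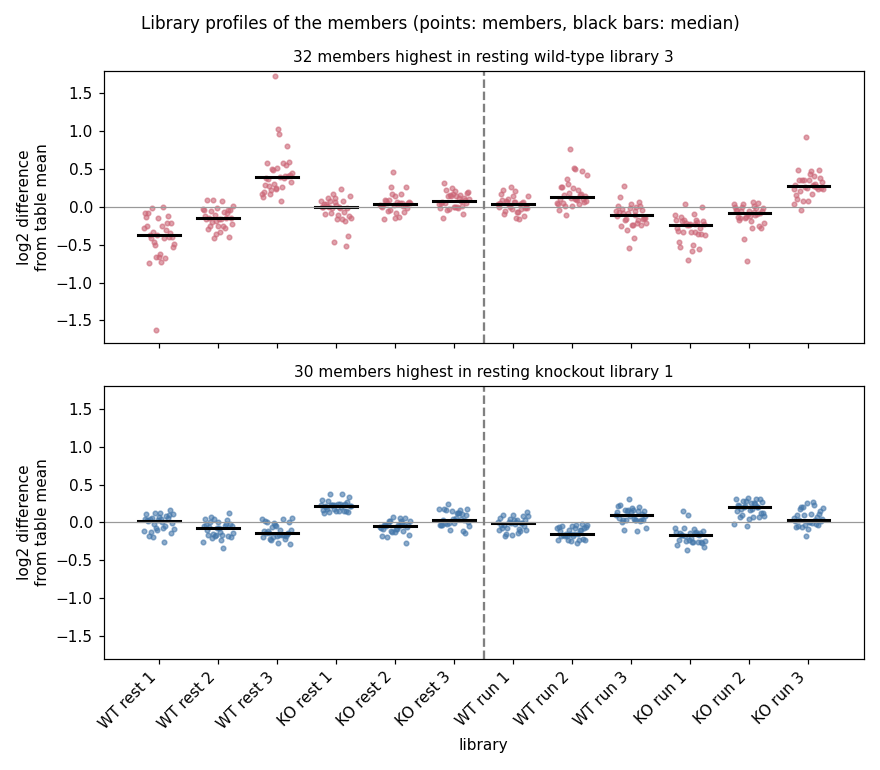
log2(FPKM + 1) minus the table mean in each library for the 32 members highest in resting wild-type library 3 (top) and the 30 members highest in resting knockout library 1 (bottom), with points for members and black bars for the median. In the top set the median was 0.39 in resting wild-type library 3 and 0.27 in running knockout library 3, and in the bottom set it was 0.22 in resting knockout library 1 and 0.20 in running knockout library 2.

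Transcript starts were compared between members, because the pyrimidine tract is the best known shared feature of these messenger RNAs. RefSeq windows of GRCm38.p6, from 250 bases before to 50 after the annotated start, were found for 67 of the 88 members, in 79 windows. A C followed by at least 5 more pyrimidines, beginning within 10 bases of the start, was in 45.6% of the member windows and in 19.2% of all 32851 windows. The letters CTTTCC, on the sense strand anywhere in the window, were in 38.0% against 14.1%, and 11 tracts held these letters. On both strands, CGGAAG, the core bound by GABP and other ETS factors, was in 59.5% against 16.9%, AAGATGGC, part of the YY1 motif, in 10.1% against 2.75%, and CACGTG, the E-box bound by Myc, in 10.1% against 7.15%. TATAAA on the sense strand was in 7.59% against 8.32%. A match describes the letters in the window only. Counted by gene, the tract was in any window of 52.2% of the members with a window, against 21.9% of all genes. The call depends on the annotated start, and Rpl19 and Rps24, for example, had windows with and without the tract.

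The starts below show the tract, in capitals, in members named above, each with 10 bases before the annotated start and 20 from it.
Rpl38, chr11:114668570-114668599, plus strand: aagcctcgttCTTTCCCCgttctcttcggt
Rps6, chr4:86857348-86857377, minus strand: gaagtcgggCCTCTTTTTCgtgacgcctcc
Rps2, chr17:24720053-24720082, plus strand: gtcgagatctcgcgCTTCTTggagcactat
Rplp2, chr7:141447641-141447670, plus strand: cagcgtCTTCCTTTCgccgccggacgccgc
Rpl18, chr7:45718061-45718090, plus strand: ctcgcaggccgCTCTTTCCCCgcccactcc
Rpl28, chr7:4792955-4792984, plus strand: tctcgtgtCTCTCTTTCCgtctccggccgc
Rpl3l, chr17:24727816-24727845, plus strand: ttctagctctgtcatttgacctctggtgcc
Rpl7l1, chr17:46782637-46782666, minus strand: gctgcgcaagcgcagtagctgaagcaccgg
The muscle paralog Rpl3l and the nucleolar relative Rpl7l1 had no such tract in these windows. Rpl38 belongs to the set highest in resting knockout library 1, and Rplp2, Rpl18 and Rpl28 to the set highest in resting wild-type library 3. Of the members with a window, 16 of 22 in the latter set had the tract (72.7%) and 8 of 22 in the former (36.4%), which is given without a test because the sets were read from the values. Between genotypes, the median log2 difference at rest was 0.09 over 34 tested members with the tract and 0.15 over 30 without it in any window. After running it was -0.06 and 0.02.

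Genes that build, drive or use the ribosome were followed beside its proteins. Of 49 tested assembly factors, 1 rose at rest: Nop56, a core protein of the box C/D particles that methylate ribosomal RNA, went from 16.2 ± 0.424 to 26.1 ± 0.283 FPKM (limma: difference 0.65 on the log2 scale, SE 0.09, adjusted p = 0.0149). That is 2.04% of the list, beside 3.04% of all tested genes called higher at rest. None of the 49 passed after running, when Nop56 had a log2 difference of 0.43 (limma adjusted p = 0.131). Of 12 tested genes of RNA polymerase I, which makes the ribosomal RNA precursor, 0 passed in either table. The list medians at rest were 0.05 and 0.10, beside 0.01 over all genes.

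Among 44 translation factors and other messenger RNAs listed as having a pyrimidine tract, 2 rose and 1 fell at rest, and 0 passed after running. These are 4.55 and 2.27% of the list, beside 3.04 and 1.67% of all tested genes. The tract itself was not looked for in this list. Eif2s2, a subunit of the factor that delivers the initiator tRNA, rose from 56.4 ± 3.64 to 90.8 ± 11.4 FPKM (limma: difference 0.67 on the log2 scale, SE 0.12, adjusted p = 0.0258). Eif3c, a subunit of the scaffold of initiation, rose from 44.7 ± 0.668 to 69.2 ± 10.9 FPKM (limma: difference 0.61 on the log2 scale, SE 0.12, adjusted p = 0.0392). Pabpc4, a poly(A)-binding protein, fell from 63.9 ± 4.43 to 46.2 ± 2.84 FPKM (limma: difference -0.46 on the log2 scale, SE 0.10, adjusted p = 0.0473). The median of this list was 0.15 at rest and 0.03 after running.

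Of 25 tested genes that signal growth to the ribosome, 3 rose at rest and 1 after running, and 0 fell. The shares called higher, 12 and 4.0% of the list, stand beside 3.04 and 1.58% of all tested genes. Eif4ebp1, which holds back the cap-binding factor until mTOR phosphorylates it, rose at rest from 26.7 ± 5.14 to 55.3 ± 1.97 FPKM (limma: difference 1.04 on the log2 scale, SE 0.14, adjusted p = 0.0149). After running it was at 52.5 ± 16.5 FPKM in wild type, with 72.6 ± 9.93 FPKM in knockout (log2 difference 0.50, limma adjusted p = 0.258). Sesn2, a leucine sensor that restrains mTOR, rose at rest from 0.491 ± 0.170 to 2.05 ± 0.421 FPKM (limma: difference 1.03 on the log2 scale, SE 0.19, adjusted p = 0.0283). Deptor, an inhibitory partner of mTOR, rose from 9.17 ± 1.30 to 17.9 ± 4.11 FPKM at rest (limma: difference 0.88 on the log2 scale, SE 0.18, adjusted p = 0.0372) and from 7.94 ± 0.404 to 16.6 ± 3.03 FPKM after running (limma: difference 0.97 on the log2 scale, SE 0.15, adjusted p = 0.0188). Each of the 3 is known as a restraint on mTOR or on initiation. The list median was 0.09 at rest and 0.01 after running. With 1 library left out in turn, Nop56 and Eif4ebp1 missed the threshold in 3 of 6 fits at rest, Sesn2, Eif2s2 and Eif3c in 5, and Pabpc4 and Deptor in all 6, with the highest limma adjusted p at 0.153. After running Deptor missed it in 4 of 6 (highest limma adjusted p = 0.0674). Calls over all genes fell from 434 to between 20 and 292 in such fits at rest and from 337 to between 70 and 103 after running. The differences in these fits ran from 0.64 to 0.67 for Nop56, 0.59 to 0.77 for Eif2s2, 0.49 to 0.70 for Eif3c, -0.52 to -0.42 for Pabpc4, 0.95 to 1.18 for Eif4ebp1 and 0.94 to 1.15 for Sesn2, and for Deptor from 0.72 to 1.02 at rest and 0.83 to 1.07 after running.

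Running and rest can only be set side by side, since how their tables were scaled to each other is not stated and rest was not tested against running. Over the 82 members at 10 FPKM or more at rest, the log2 ratio of the running to the resting mean had a median of 0.08 in wild type, with 61 above 0, and 0.01 in knockout, with 46 above 0. The widest values belonged to the genes of low FPKM, from -1.36 for Rpl26 to 1.17 for Rpl34 in wild type and from -1.10 for Rps27 to 0.80 for Rps16 in knockout. The high members lay close to their resting values, with Rpl38 at 1177 ± 52.5 FPKM at rest and 1187 ± 144 FPKM after running in wild type, and at 1355 ± 65.0 and 1401 ± 272 FPKM in knockout.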

How the data were processed

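RNA-seq of 12 quadriceps libraries was used, and the 4 GRO-seq samples were not analysed here. The authors deposited FPKM values per library, in 2 tables, 1 per condition. TopHat2, Bowtie, Cuffdiff and HOMER with build mm9 are named per the submitters' processing notes, while versions, annotation, strand and the treatment of multiply mapped reads are not given in the sources used here. The p-value and q-value columns deposited by the authors compare the genotypes. Which table holds rest was taken from the tables' names. After running, 27 gene names that had become dates were left out.

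Genes with a deposited p under 1 were tested (9204 at rest, 9037 after running) on the log2(FPKM + 1) scale with limma 3.58.1 (R 4.3.3), two-sided and with trended variances, and p was adjusted by Benjamini-Hochberg over all of them, with a threshold of 0.05. The code was tested on simulated data. Differences are knockout minus wild type on the log2(FPKM + 1) scale, which understates changes of low genes. The paralog ratio used an exact permutation test. Members, gene lists and the rule for named genes (largest differences, highest and lowest levels, paralog pairs, and genes of known function) were chosen with earlier results of these data known. Genes named for their library pattern, and Rps16 without its high library, were picked after their values were seen. Alternatives were another pseudocount, other filters, median centring, a replicate block, no trend, the authors' q, and leaving out each library. Among the totals 1 member is counted but not reported by itself here.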

Additional observations from a re-analysis of the deposited data

How the results depend on the processing

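Without depth, only the spread of 3 libraries limits these values. No member passed limma under another pseudocount, other filters, median centring, a replicate block or a fit without the variance trend. The exceptions were single: 1 member by the authors' q in each table (Rps2, q 0.0429, and Rps16, q 0.00432), and a range of 0 to 1 over the fits that each left out 1 library, at rest (Rpl29 without wild-type library 3, log2 difference 0.60, adjusted p = 0.0477 by limma) and after running (Rpl30 without wild-type library 2, log2 difference 1.84, limma adjusted p = 0.0096). The cause was not tested. The contrast gave 0 in all 18 alternatives. Leaving out single libraries moved the members' median between 0.088 and 0.157 at rest and between -0.0684 and 0.0991 after running, and the Rpl3l to Rpl3 difference between -0.60 and -0.30 at rest and between -0.48 and -0.26 after running. Of 288 values for 12 members, 285 kept their direction and side of the threshold. Other filters, the replicate block and the fit without trend left each difference itself unchanged. None of the 12 passed in the main fit, so this count says little about stability. The reversals were Rpl30 at rest without knockout library 1 (0.0862, with a lowest value of -1.56 among single libraries left out) and Rpl3l after running without wild-type library 2 (0.0408, lowest -0.14). Correlations between wild-type and knockout libraries of the same number lay between -0.329 and 0.0487. For different numbers they lay between -0.143 and 0.364. With 3 libraries per group these values cannot decide whether the libraries were paired. With the replicate block the ratio gave p = 0.5 at rest and 0.25 after running by an exact sign-flip test, the members' counts stayed at 0, and the calls over all genes were 52 against 434 at rest and 170 against 337 after running. Without a filter on low values they were 247 and 109. With 1 library left out they were 20 to 292 and 70 to 103.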
